A study of Mus musculus with 2 samples.

Results

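Dense clusters of distal accessible sites were stretches of the mouse genome in which DNase I peaks of the hippocampus stood close together, away from the promoters of protein-coding genes. Members were chosen by peak positions and then ranked by peak height: a replicate 1 peak entered when it overlapped a replicate 2 peak by at least 1 bp and lay more than 1000 bp from all start sites of coding transcripts, peaks at most 5000 bp apart were chained, and chains of at least 8 peaks were kept. This gave 88 clusters with 1005 peaks, which were 1.23% of the 81957 shared distal peaks. The clusters were ranked by the summed height of their peaks, as the mean of both replicates. DNase-seq maps accessible chromatin, because DNase I cuts DNA most where nucleosomes leave it open, and a peak's height is the authors' own value on a scale that is not stated. The 2 samples formed 1 group, hippocampus (labelled as a layer of it, with no layer named) of male B6CASTF1/J mice (F1 offspring of C57BL/6J and CAST/EiJ) aged 8 to 10 months, with no genetic change or treatment stated. Each replicate was a pool of 2 biosamples and both carry the same donor label, so the spread between replicates may be technical. There was no second condition, no test between conditions was possible, and every value below is a description of these libraries.

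Most accessible sites far from promoters are enhancers, insulators or start sites of transcripts that code for no protein. Runs of enhancers packed within a few kilobases are known from genes that set the identity of a cell, many of them transcription factors. Transfer RNA (tRNA) genes also sit in groups; RNA polymerase III transcribes them from promoter elements inside the gene, the A box and the B box, so an active tRNA gene is itself an accessible site. In brain, miR-9 and miR-124 are abundant microRNAs (short RNAs that repress messenger RNAs through their seed), each made from several gene copies, and miR-124 is a hallmark of neurons.

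The sequences of 9 peaks are given as examples, each with a marked match or a tRNA gene, and are not a fair sample of the clusters. They were read from GRCm38 (the sequence of mm10), plus strand, and each is the tallest peak of at most 300 bp in its cluster. Such peaks without any marked match, as near Ezh2 and in Nfix, are left out. Of all cluster peaks in replicate 1, only 1.39% hold the CTCF string and 0.697% the NFI string, and 3.48% overlap a tRNA gene. In the first group, capitals mark exact matches, anywhere in the peak, to the motif strings described with the motif results. The 2 in the Irf2bpl peak are not within the window that those results count. The peak 5′ of Mir9-2 holds the homeobox string, the one beside Bahcc1 a forkhead and a nuclear factor I (NFI) match, the one near Irf2bpl an NFI and an RFX match, those near Calcoco1 and beside Mir124a-3 a match for the insulator protein CTCF (the second one also an E-box), and the one within Rasgrf1, from the cluster with the lowest peaks, an E-box.
Mir9-2 cluster, chr13:83715061-83715280: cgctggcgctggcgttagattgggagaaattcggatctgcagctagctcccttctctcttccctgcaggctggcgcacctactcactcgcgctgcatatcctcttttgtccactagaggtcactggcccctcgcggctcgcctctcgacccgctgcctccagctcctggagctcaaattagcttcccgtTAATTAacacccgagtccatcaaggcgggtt
Bahcc1 cluster, chr11:120231541-120231740: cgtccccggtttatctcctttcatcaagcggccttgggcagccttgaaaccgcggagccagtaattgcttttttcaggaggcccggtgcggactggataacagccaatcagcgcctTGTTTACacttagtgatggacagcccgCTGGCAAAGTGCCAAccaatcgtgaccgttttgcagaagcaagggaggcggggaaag
Irf2bpl cluster, chr12:86894461-86894740: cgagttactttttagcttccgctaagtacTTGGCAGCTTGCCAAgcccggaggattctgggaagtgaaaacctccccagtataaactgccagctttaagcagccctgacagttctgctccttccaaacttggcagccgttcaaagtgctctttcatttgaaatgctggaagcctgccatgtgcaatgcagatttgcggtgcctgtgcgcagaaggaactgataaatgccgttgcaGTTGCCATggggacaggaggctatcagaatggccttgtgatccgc
Calcoco1 cluster, chr15:102742681-102742880: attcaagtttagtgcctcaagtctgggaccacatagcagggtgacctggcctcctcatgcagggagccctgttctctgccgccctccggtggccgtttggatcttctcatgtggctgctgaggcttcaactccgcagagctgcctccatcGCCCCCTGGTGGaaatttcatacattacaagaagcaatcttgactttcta
Mir124a-3 cluster, chr2:180894821-180895080: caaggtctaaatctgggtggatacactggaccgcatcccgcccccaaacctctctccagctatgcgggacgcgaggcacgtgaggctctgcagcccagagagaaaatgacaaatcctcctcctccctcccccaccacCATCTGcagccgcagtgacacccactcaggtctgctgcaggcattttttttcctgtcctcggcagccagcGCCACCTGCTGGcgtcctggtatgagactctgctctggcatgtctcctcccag
Rasgrf1 cluster, chr9:89946121-89946280: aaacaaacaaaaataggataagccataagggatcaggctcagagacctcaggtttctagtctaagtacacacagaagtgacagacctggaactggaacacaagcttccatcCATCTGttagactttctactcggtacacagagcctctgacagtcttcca
In the second group, from clusters over tRNA genes, capitals mark the tRNA gene, which lies on the minus strand in each case and is annotated by RefSeq as tRNA-Tyr, tRNA-His and tRNA-Phe.
Cluster near Abt1, tRNA-Tyr, chr13:23432981-23433160: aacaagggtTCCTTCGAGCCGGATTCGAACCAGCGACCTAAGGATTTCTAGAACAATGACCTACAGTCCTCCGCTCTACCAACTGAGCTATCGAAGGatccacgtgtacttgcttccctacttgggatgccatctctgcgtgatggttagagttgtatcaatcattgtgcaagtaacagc
Cluster near Hfe2, tRNA-His, chr3:96500341-96500580: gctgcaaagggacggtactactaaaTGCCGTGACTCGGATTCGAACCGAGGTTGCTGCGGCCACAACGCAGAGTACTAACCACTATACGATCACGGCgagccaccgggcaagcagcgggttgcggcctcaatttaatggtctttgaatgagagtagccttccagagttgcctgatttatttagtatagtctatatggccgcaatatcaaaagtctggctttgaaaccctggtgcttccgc
Cluster near Dhx37, tRNA-Phe, chr5:125406021-125406260: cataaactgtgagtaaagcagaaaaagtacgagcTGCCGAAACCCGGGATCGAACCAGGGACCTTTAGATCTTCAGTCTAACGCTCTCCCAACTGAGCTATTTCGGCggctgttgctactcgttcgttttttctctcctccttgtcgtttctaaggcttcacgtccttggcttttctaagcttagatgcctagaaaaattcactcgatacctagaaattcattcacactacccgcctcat
By GENCODE M21, the Rasgrf1 peak lay in an intron of the gene, the Bahcc1 peak in the noncoding gene 2900052L18Rik at 1207 bp from the Bahcc1 start, and the Mir124a-3 peak in the noncoding gene Gm27032. The other 6 lay in no coding or noncoding gene of that annotation, and the coding start nearest to the Mir9-2 peak was that of Mef2c, at 139384 bp.

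The name distal held only with respect to protein-coding starts. Of the 1005 cluster peaks, 96 (9.55%) lay within 1000 bp of the start of a transcript that codes for no protein, against 4.802% of the 80952 other shared distal peaks, 35 (3.48%) overlapped a tRNA gene, against 161 (0.199%) of the others, and 174 (17.3%) overlapped coding sequence, against 4.75% of the others. In chains of 4 to 7 peaks these 3 shares were 8.95%, 1.055% and 6.50%, so that near noncoding starts was almost that of the clusters. In 26 of the 88 clusters the span held a coding start, the promoter peak itself being left out by the rule. The tissue label was checked at promoters, which the rule did not use: all 14 markers of excitatory neurons had a promoter peak in both replicates, as did 12 of 14 astrocyte and 15 of 18 oligodendrocyte markers, against 2 of 12 liver markers, 3 of 12 muscle markers and 1 of 12 lymphocyte markers. Markers of choroid plexus and ependyma had one in 3 of 12 and those of endothelial cells in 2 of 12. Inhibitory neuron markers reached 7 of 16, microglia 4 of 14, and mural cells and fibroblasts 6 of 12. Dentate granule cell markers stood at 9 of 12 and oligodendrocyte precursor markers at 7 of 9. Pyramidal cell markers stood at 6 of 8 (CA1) and 10 of 12 (CA2 and CA3). Taken singly, replicate 1 gave such a peak at 64.8% of coding genes without a cluster, and replicate 2 at 63.6%. Beside those shares the check was mixed among cell types of the brain.

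The clusters differed widely in size and height. A cluster held 9 peaks at the median and 31 at most, spanned 3640 to 34200 bp (median 11120 bp), and its peaks covered between 7.04% and 79.1% of its span. The summed height ran from 1.84 to 42.5 as the mean of both replicates, with a median of 11.1 in replicate 1 and 9.44 in replicate 2. The median cluster had 24.4% of its summed height in its tallest peak. That share was lowest at Rasgrf1 (11.2%) and highest at Irx5 (59.2%), and in 5 clusters it was 51.1% or more. Peak number and peak height did not go together: the 10 clusters with a mean peak height of at least 2 in replicate 1 held 8 to 12 peaks each, whereas 4 of the 5 clusters with the most peaks had a mean height under 0.5. Peaks were also called in overlapping pairs, which the rule counts as 2: 136 cluster peaks (13.5%) overlapped another peak of the same list, against 1.70% of the other shared distal peaks. The summed height in replicate 1 adds both heights of such a pair, as at Sox8 (3.71 and 3.54). The sum in replicate 2 adds each peak that overlaps a member once. With overlapping or touching peaks counted as 1 site, 69 clusters were left, and with peaks at most 200 bp apart counted as 1 site, 37.

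**Figure D1:**
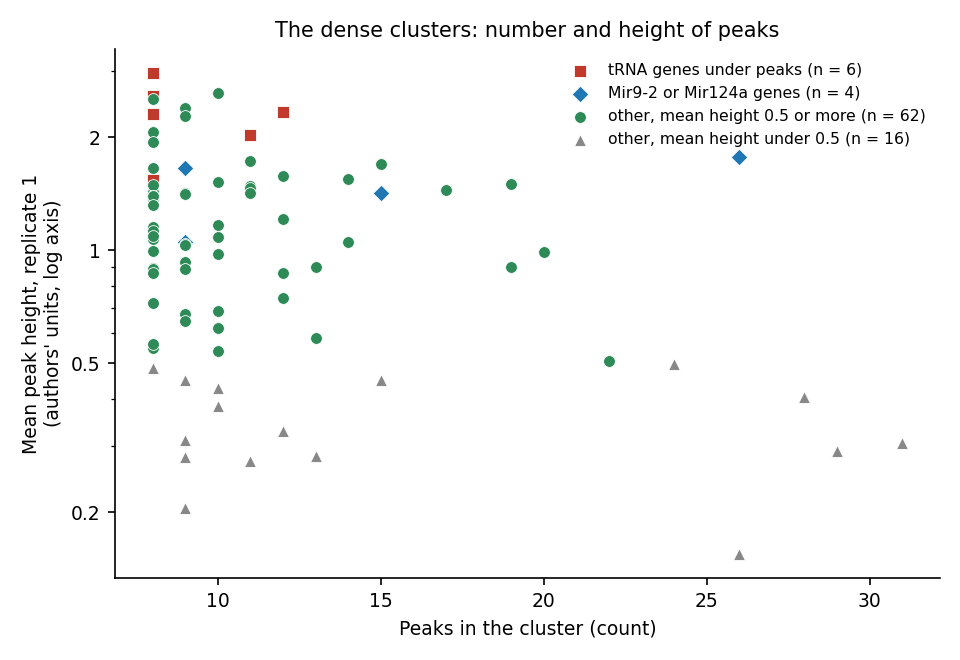
Each point is 1 of the 88 clusters, with its number of peaks on the horizontal axis and the mean height of its peaks in replicate 1 on the vertical axis (authors' units, log axis). The 6 clusters over tRNA genes have 8 to 12 peaks and mean heights from 1.54 to 2.96, whereas the 16 clusters of mean height under 0.5 include those with 28, 29 and 31 peaks.

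The 4 classes in that plot were drawn after the values were seen, so they describe the clusters and test nothing. They were 6 clusters with a tRNA gene under a peak (55 peaks), 4 with Mir9-2 or a Mir124a gene (59 peaks), 62 others with a mean peak height of at least 0.5 in replicate 1 (638 peaks) and 16 others below it (253 peaks). Peaks of the tRNA class had a median height of 2.00 in replicate 1 and 2.20 in replicate 2, against 0.998 and 0.917 in the microRNA class, 0.840 and 0.781 in the taller remainder, and 0.263 and 0.245 in the lower remainder. The classes stood in the same order in both replicates.

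Genes that GENCODE types as microRNA were inside a cluster in 12 of 2202 cases (0.545%), and 24 had at least 5 shared distal peaks within 5000 bp, the median being 0. The highest cluster stood at Mir9-2, one of the 3 genes of miR-9. It ran over 32172 bp of chromosome 13 (83713109 to 83745280) with 26 peaks, which summed to 46.1 in replicate 1 and 39.0 in replicate 2, above both replicates of every other cluster. Its span held Mir9-2 and the long noncoding RNA genes C130071C03Rik and Gm26803, and the nearest coding gene, Mef2c, a transcription factor of neurons and muscle, was 46029 bp away. The heights within it ran from 0.486 to 7.27 in replicate 1 and from 0.478 to 5.97 in replicate 2. The tallest peak, printed above, lay 23679 bp 5′ of the middle of the microRNA gene, with 7.27 in replicate 1 and 5.97 in replicate 2. The next lay 6281 bp 3′ of it (6.58 and 5.21) and 1091 bp 3′ of it (4.86 and 3.67). The peak over the microRNA gene itself was low, at 0.801 in replicate 1. The same mature sequences are encoded by Mir9-1 on chromosome 3, Mir9-2 and Mir9-3 on chromosome 7, as given by RefSeq (GRCm38.p6) with the seed in capitals.
mmu-miR-9-5p: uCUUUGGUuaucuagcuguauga
mmu-miR-9-3p: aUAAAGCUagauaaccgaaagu
Within 5000 bp of the gene, 5 shared distal peaks were found at Mir9-2, 3 at Mir9-3 and 2 at Mir9-1, with summed heights of 8.27, 6.69 and 2.87 in replicate 1. Neither Mir9-1 nor Mir9-3 was in a cluster. A chain of 7 peaks, 1 short of the limit and noticed after the values were seen, ended 264 bp 5′ of Mir9-3, with sums of 15.1 in replicate 1 and 13.5 in replicate 2.

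All 3 genes of miR-124 lay in clusters. Mir124a-3 stood in a cluster of 15 peaks on chromosome 2 that summed to 21.3 in replicate 1 and 15.5 in replicate 2, and that also overlapped Ythdf1, which encodes a reader of methylated adenosine in messenger RNA. Mir124a-1, on chromosome 14, had 9 peaks with sums of 14.9 and 10.9 and no coding gene within 52805 bp. Mir124a-2, on chromosome 3, had 9 peaks with sums of 9.46 and 10.0, at 149730 bp from the nearest coding gene. Within 1000 bp of a noncoding start lay 5 of 15 peaks at Mir124a-3, 6 of 9 at Mir124a-1 and 6 of 9 at Mir124a-2. Only the Mir124a-3 cluster was kept when peaks near the starts of all transcripts were left out. The same held with gaps of at most 2500 bp, at least 10 peaks or the shorter peak list. The tallest peaks flanked the Mir124a-3 gene on both sides, 1033 bp 5′ (4.69 in replicate 1 and 3.18 in replicate 2) and 877 bp 3′ (4.84 and 4.06), while the peak over the gene had 1.38 in replicate 1 and 0.917 in replicate 2. At Mir124a-1 the tallest peak was 3062 bp 3′ (3.26 and 2.54), and at Mir124a-2 it was 2875 bp 3′ (1.67 and 2.41). Besides these, the clusters held Mir3089, Mir3078 and Mir1191b among others, and 1 of the 12, n-TStga1, lay in the tRNA array near Hist1h4h.

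**Figure D2:**
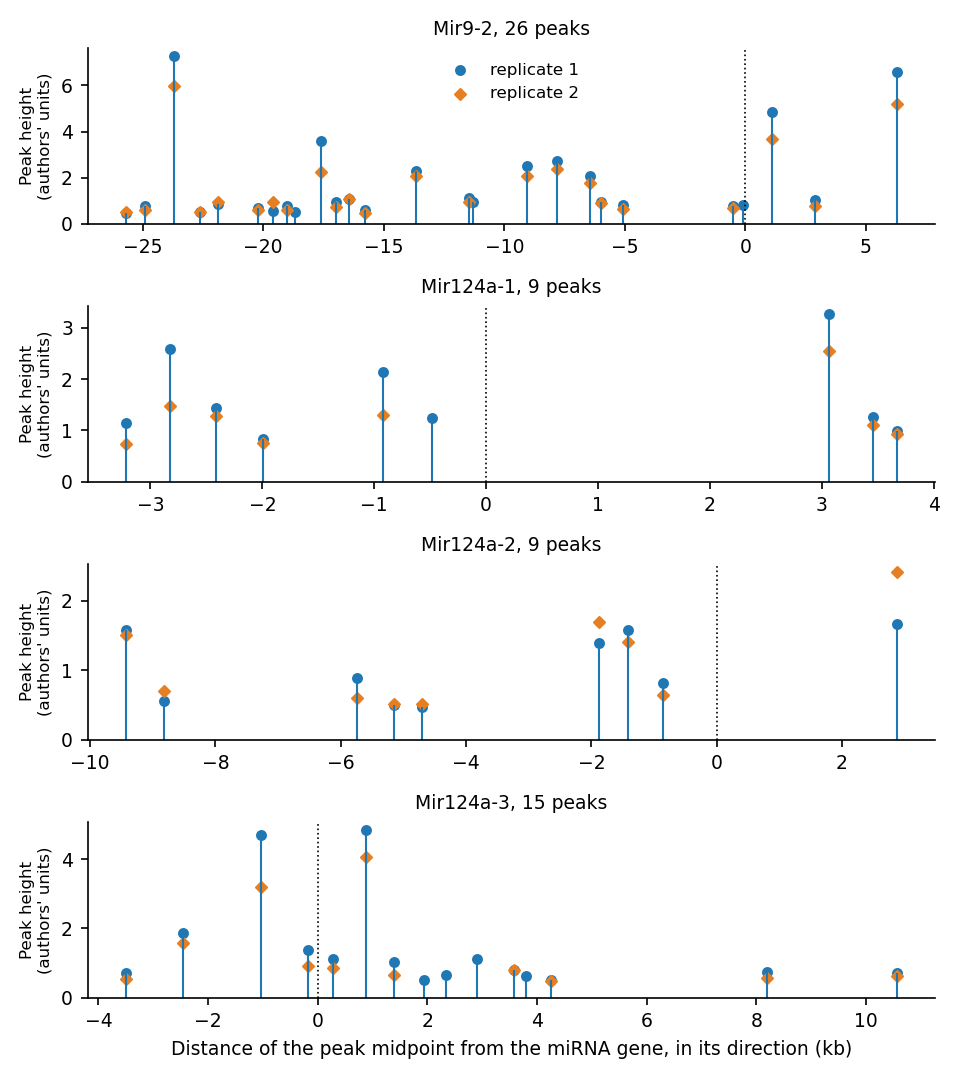
Height of each cluster peak (vertical axis, authors' units) against the distance of its midpoint from the middle of the microRNA gene (horizontal axis, kb, positive 3′ of it; the dotted line marks the gene), with a circle for replicate 1 and a diamond for replicate 2 where a matched peak exists. At Mir9-2 the 3 tallest peaks stand at -23.7, 1.09 and 6.28 kb, and at Mir124a-3 the 2 tallest lie on either side of the gene.

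The next class was arrays of tRNA genes, which took ranks 2, 5, 7, 8, 13 and 31. The highest, near Abt1 on chromosome 13 (23425561 to 23438853), had 12 peaks, 9 of them on a tRNA gene (4 of tRNA-Tyr, 2 of tRNA-Ala and 1 each of tRNA-Ile, tRNA-Lys and tRNA-Pro). Its heights summed to 28.03 in replicate 1 and 30.3 in replicate 2. Another, on the same chromosome near the histone gene Hist1h4h, had 7 of 8 peaks on tRNA genes and sums of 20.6 and 25.8. The array near Hfe2 on chromosome 3 had sums of 23.7 and 25.9, the one near Osbp on chromosome 19 had 22.3 and 23.9, the one near Dhx37 on chromosome 5 had 18.5 and 21.04, and the one near Trim27 on chromosome 13 had 12.3 and 11.3. Replicate 2 was thus the higher in 5 of these 6 clusters, whereas its peaks were lower in general (median log2 ratio of replicate 2 to replicate 1 of -0.16 over 80745 matched pairs). Some clusters without tRNA genes also had the higher sum in replicate 2, such as those at BC035044, near Ezh2 and on chromosome Y.

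Across the genome 198 of 403 nuclear tRNA genes of the RefSeq annotation lay under a shared distal peak, 37 of them under a cluster peak. The 35 cluster peaks on a tRNA gene had a median height of 2.74 in replicate 1 and 2.88 in replicate 2, and the 161 other shared distal peaks on one (0.199% of the others) had 2.82 and 3.32. The cluster peaks without a tRNA gene had 0.663 and 0.633. The median log2 ratio of replicate 2 to replicate 1 was 0.20 for the tRNA peaks in clusters and 0.20 for those elsewhere. The B box string GTTCGANNC (either strand, anywhere in the peak) was present in 24 of the 35 cluster peaks on tRNA genes (68.6%) and in 113 of the 161 elsewhere (70.2%). It was found in 0.515% of cluster peaks and 0.287% of other shared distal peaks that overlap no tRNA gene.

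**Figure D3:**
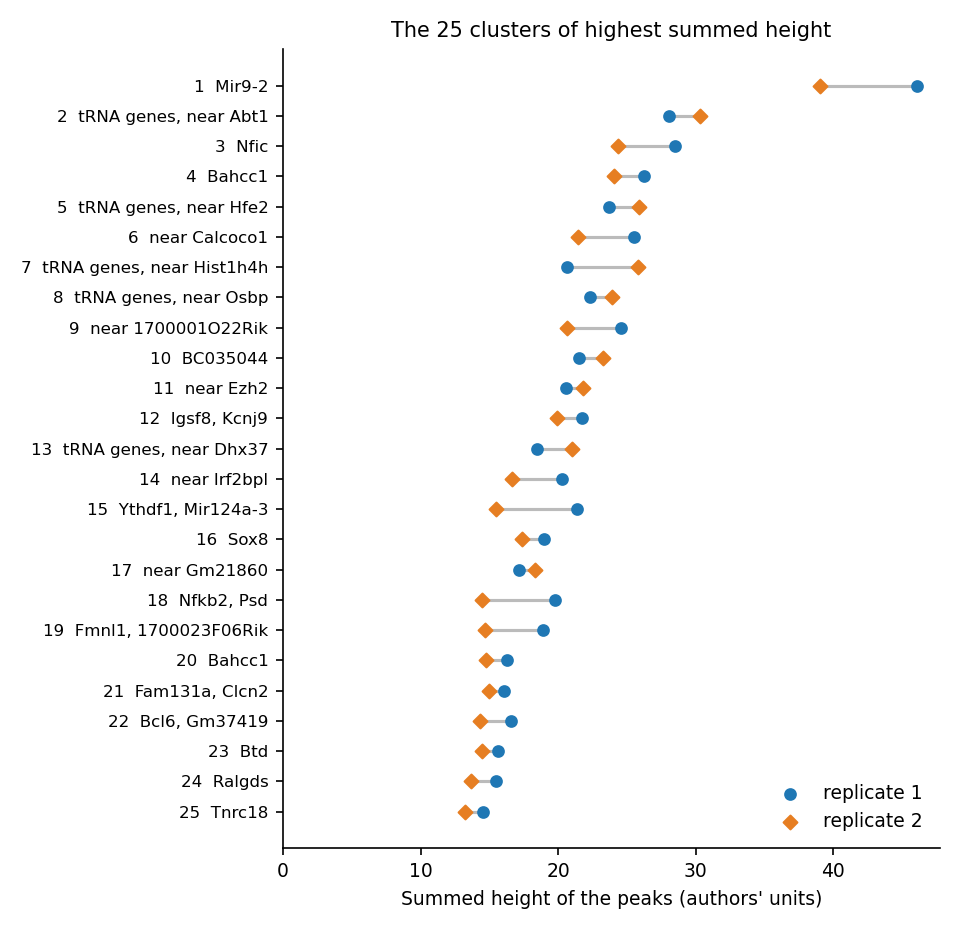
Summed peak height (horizontal axis, authors' units) of the 25 clusters of highest rank, with a circle for replicate 1 and a diamond for replicate 2. Mir9-2 is at 46.1 and 39.0, and no other cluster exceeds 30.3. The diamond lies to the right of the circle in the 5 tRNA clusters shown, and also at BC035044, near Ezh2 and on chromosome Y.

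Of all 21851 coding genes, 104 (0.476%) carried a cluster, 80 of them by overlap and the rest as the nearest gene. The remaining clusters of the first 25 are given one by one, and no gene group was tested among them. Nfic, a member of the NFI family of transcription factors, had 19 peaks over 34200 bp, the longest span of all, with sums of 28.5 in replicate 1 and 24.4 in replicate 2. Its order against the tRNA array near Abt1 differed between replicates. Bahcc1, which encodes a protein that binds methylated histone H3, had 2 clusters: 10 peaks across its start with sums of 26.2 and 24.1, and 11 peaks further into the gene with 16.3 and 14.8. The first held the tallest peak of any cluster, 13.4 in replicate 1 and 12.7 in replicate 2, which lay 1207 bp from the coding start, just beyond the limit of the rule. Sox8, a SOX family factor, had 11 peaks with sums of 19 and 17.4. Bcl6, a transcriptional repressor, had 8 peaks with sums of 16.6 and 14.3, and Tnrc18 had 12 peaks with 14.5 and 13.2. Near Irf2bpl, a regulator of transcription, 8 peaks summed to 20.2 and 16.6, of which the tallest had 9.48 and 8.12. Near Ezh2, the methyltransferase of Polycomb repressive complex 2, 9 peaks at 51429 bp from the gene summed to 20.5 and 21.8, with 11.4 and 11.9 in 1 peak and a median peak of only 0.532 and 0.613.

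Of the 4 NFI genes, 3 carried a cluster, Nfia being the exception, beside 0.476% of all coding genes. With peaks at most 200 bp apart merged only the Nfic cluster was kept, and with gaps of at most 2500 bp, or the shorter peak list, only that of Nfib. Besides Nfic, Nfix had 8 peaks with sums of 11.6 in replicate 1 and 10.5 in replicate 2, and Nfib had 13 peaks with 11.7 and 9.49. The NFI binding string was not more common in cluster peaks (0.697%) than in other shared distal peaks (0.925%). Among the forebrain transcription factors listed, 5 of 30 carried a cluster or were the nearest coding gene to one: Mef2c (nearest to the Mir9-2 cluster), Pou3f3, Nfix, Nfib and Tcf4. That is 16.7% of the list, beside the 0.476% of all coding genes, and the list was drawn up with earlier results of these data known. Of the 5, only the cluster at Mir9-2 was kept with close peaks merged. Pou3f3, a POU factor of upper-layer and hippocampal neurons, had 9 peaks with sums of 12.8 and 12.3, and Tcf4, the fifth and so named outside the rule, a basic helix-loop-helix factor that binds E-boxes, had 9 peaks with only 4.06 and 3.29. The activity-induced factor Egr3 was the only 1 of 20 activity-induced genes with a cluster: 8 peaks in 6060 bp with sums of 11.6 and 9.87. Outside the naming rule, and chosen after their values were seen, Irx5 had 12 peaks with sums of 8.93 and 7.75 and Fezf2 had 8 peaks with 5.79 and 5.92.

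Other clusters of the first 25 lay over genes of varied function. Kcnj9, a subunit of potassium channels opened by G proteins, and Igsf8, an immunoglobulin superfamily gene, shared a cluster of 14 peaks with sums of 21.7 in replicate 1 and 19.9 in replicate 2. A cluster across Clcn2, a chloride channel gene, and Fam131a had 11 peaks with 16.1 and 15.0, and a cluster over Nfkb2, an NF-kappa-B subunit, and Psd, an exchange factor for the GTPase ARF6, had 20 peaks with 19.8 and 14.5. Fmnl1, a formin that acts on actin, had 12 peaks with 18.9 and 14.7, of which 11 lay on coding sequence. BC035044 had 9 peaks with 21.6 and 23.3, Btd (biotinidase) 11 peaks with 15.6 and 14.5, and Ralgds, an exchange factor for Ral GTPases, 8 peaks with 15.5 and 13.7. Of 17 ionotropic glutamate receptor genes, Grik5, a kainate receptor subunit, and Gria1, an AMPA receptor subunit, carried a cluster, which is 11.8% of the list beside 0.476% of all coding genes. The Gria1 cluster had 24 peaks with sums of 11.9 in replicate 1 and 8.81 in replicate 2. Of 12 protocadherin genes outside the tandem arrays, which encode adhesion proteins, Pcdh10, Pcdh15 and Pcdh17 carried one (named after their values were seen, and beside the same 0.476%), with sums of 8.03 and 9.70, 7.17 and 8.20, and 9.76 and 7.89. No cluster fell on any of 16 synaptic vesicle genes or 16 postsynaptic density genes, and beside 0.476% of all coding genes these lists are too short for a count of 0 to say anything.

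None of the 12 lists of cell type markers had a member with a cluster, from 14 markers of excitatory neurons and 16 of inhibitory neurons to 14 of astrocytes, 18 of oligodendrocytes and 14 of microglia. The same limit holds for these counts of 0. The lists of 16 Hox, 12 skeletal muscle, 12 liver and 12 lymphocyte genes and of 16 signalling pathway regulators had none either.

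Of the 5 clusters with the most peaks, the 4 other than Mir9-2 were low runs that overlapped coding genes. B4galt5, which encodes an enzyme of glycosphingolipid synthesis, had 31 peaks in 15840 bp that summed to only 9.47 in replicate 1 and 7.61 in replicate 2. Apba2, which encodes a neuronal adaptor of the amyloid precursor protein, had 29 peaks with sums of 8.43 and 7.38. A run of 28 peaks over Ints11, Pusl1 and Acap3 had 11.4 and 11.2. Rasgrf1, an imprinted gene for a Ras exchange factor expressed in neurons, had 26 peaks in 18830 bp with only 4.03 and 4.31. Its tallest peak had 0.453 in replicate 1 and 0.291 in replicate 2, below the replicate 1 median of all shared distal peaks, 0.761. Gria1 was of the same kind, with a median peak of 0.315 and 0.287 beside 1 peak of 3.68 and 2.21. All 16 clusters of low mean height overlapped a coding gene, and 56 of their 253 peaks (22.1%) were on coding sequence. In the taller remainder 47 of 62 clusters overlapped a coding gene, and 18.5% of peaks were on coding sequence.

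Between the peaks of these low runs the deposited false discovery rate of the cut rate was often below its listing limit of 0.05 too. The median cluster of the low class had 51.2% of the bases in its gaps listed in replicate 1 and 43.0% in replicate 2, against 16.7% and 9.81% in the taller remainder. Over all chains, 20.9% of gap bases were listed in chains of at least 8 peaks, 9.30% in chains of 4 to 7 and 6.84% in chains of 2 to 3 in replicate 1, with 15.6%, 6.46% and 4.60% in replicate 2. The gaps compared were unlike in length, with medians of 460, 1140 and 1528 bp in the same order, and the part of gap length was not tested.

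Footprints, short protected stretches that the authors called in each library, were scarcer in the clusters. Cluster peaks held 8.01 footprints per 1000 bp of peak in replicate 1 and 8.05 in replicate 2, against 10.8 and 10.3 in other shared distal peaks. The low runs had the fewest: their peaks held 3.74 and 3.33 per 1000 bp, and 58.1% of them had no footprint in replicate 1, whereas the taller remainder held 9.10 and 9.06, the microRNA clusters 9.18 and 11.5 and the tRNA clusters 15.4 and 15.9. Rasgrf1 had the fewest in replicate 1, with 0.754 per 1000 bp and 1.76 in replicate 2. Of peaks no lower than the median height, cluster peaks held 12.4 and 12.6 and other peaks 13.2 and 13.0, and among those below it 4.17 and 4.05 against 7.98 and 7.16. Among the peaks below the median, the cluster peaks were also lower, with a median height of 0.374 against 0.486. Footprint density thus moved with height, and the part of height in the difference was not tested.

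**Figure D4:**
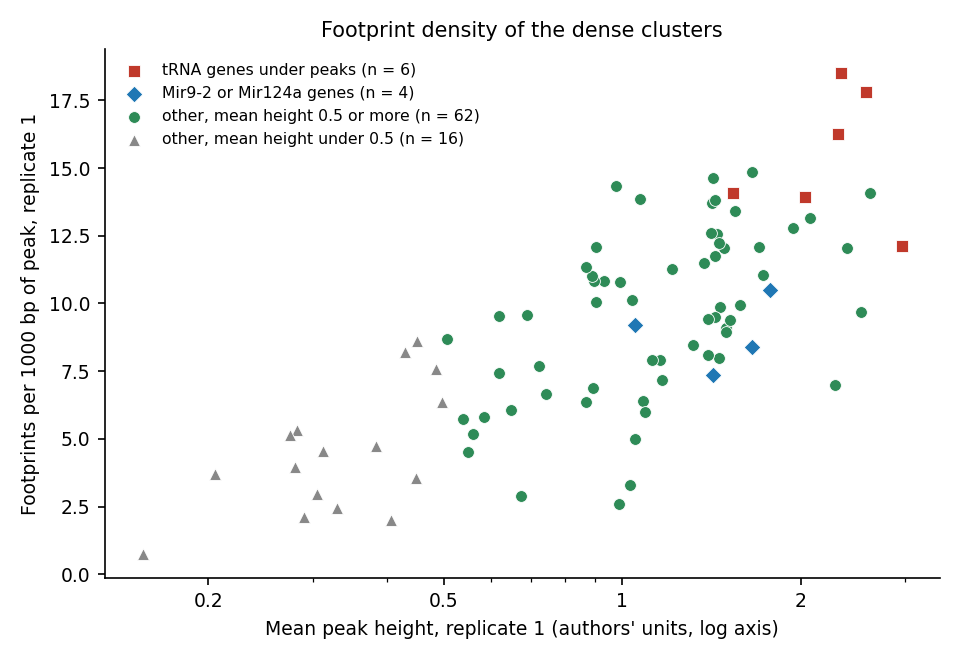
Footprints per 1000 bp of peak in replicate 1 (vertical axis) against mean peak height in replicate 1 (horizontal axis, authors' units, log axis) for the 88 clusters, by class. Rasgrf1 is lowest on both axes, with 0.754 footprints per 1000 bp, and the tRNA clusters lie at the upper right, at 12.1 to 18.5.

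Sequence, which the rule did not use, differed from that of other distal peaks. The median GC content was 54.1% in cluster peaks and 50% in the others, and it rose with chain length: 49.2% for single peaks, 50.8% in chains of 2 to 3, 53.0% in chains of 4 to 7 and 54.1% in chains of at least 8. Of 21 motifs searched as exact strings on both strands within 100 bp of the peak midpoint, 17 had at least 5 cluster peaks found or expected at the share of the other peaks. A motif was called when its odds ratio was past 1.5 in the same direction in the peak lists of both replicates. By that measure 6 motifs (28.6% of the 21) were lower in cluster peaks and 3 (14.3%) were higher. Among the taller peaks, those no lower than the median, 3 stayed lower (CTCF, the E-box CAGATG and the homeobox string). With gaps up to 10000 bp 2 did (the E-box and the homeobox string), CTCF missed the threshold in 1 list (0.660 and 0.680) and the MEF2 odds ratio turned above 1, at 1.06 and 1.14. With the shorter peak list only the SP and KLF string was called higher, the CREB-like and ROR strings having too few matches.

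Matches to CTCF were among those lower in clusters, CTCF being the insulator protein that shapes chromatin loops. Its string was found in 1.39% of cluster peaks in replicate 1 and 1.62% in replicate 2, against 6.31% and 6.28% of other shared distal peaks (odds ratios 0.217 and 0.254). Lower on 14 of the 15 chromosomes with at least 20 cluster peaks, it stood at 6.75% in single peaks, 5.85% in chains of 2 to 3 and 5.53% in chains of 4 to 7. Of peaks no lower than the median height it was found in 2.58% of cluster peaks and 9.52% of the others. The E-box CAGATG, bound by neuronal basic helix-loop-helix factors such as those of the NeuroD family, was present in 17.01% and 16.5% of cluster peaks, against 31.2% and 31.0% of the others, and was lower on all 15 chromosomes. The homeobox string TAATTA was found in 1.49% and 1.62%, against 4.56% and 4.54%. The AP-1 string TGANTCA, bound by FOS and JUN proteins, was found in 6.37% and 6.19%, against 10.9% and 10.8%, and the RFX string GTTGCCAT in 0.995% and 0.914%, against 1.94% and 1.96%. The MEF2 string was found in 0 cluster peaks of replicate 1 and 1 of replicate 2, against 0.608% and 0.567% of the others.

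The 3 strings that were more common in cluster peaks were those of SP and KLF factors (GGGGCGGGG, 2.79% and 2.84%, against 1.10% and 1.04%), of CREB-like factors (TGACGTCA, 0.796% and 0.914%, against 0.392% and 0.382%) and of ROR receptors (TAGGTCA, 1.99% and 2.23%, against 0.986% and 1.03%). They rested on 28, 8 and 20 cluster peaks in replicate 1, and they were higher on 10, 6 and 11 of the 15 chromosomes. The SP and KLF string, made of G and C, went up with chain length from 0.811% in single peaks to 2.79%, beside the GC content above. In chains of 4 to 7 peaks it was already at 2.32%. The CREB-like string stood there at 0.816%, no lower than in the clusters, and the ROR string at 1.08%. The other strings tested were the E-box CAGCTG, SOX (ACAATGG), POU (ATGCAAAT), TCF/LEF (ATCAAAG), TEAD (ACATTCC), FOX (TGTTTAC), PU.1 (GAGGAAGT) and NFI, none of them past 1.5 in both lists. EGR (GCGTGGGCG), NRF1 (GCGCATGCG), ETS (CCGGAAGT) and REST had too few matches. A MEF2 match can contain the homeobox string and an NFI match an E-box. A match describes the letters in a window and is neither a bound site nor a cause.

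**Figure D5:**
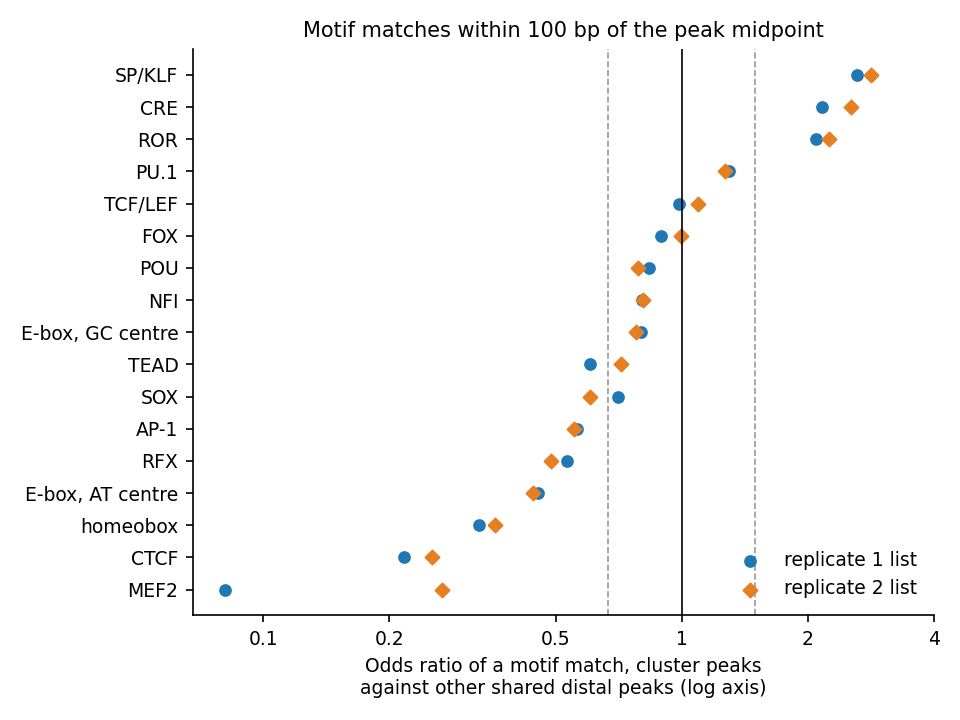
Odds ratio (horizontal axis, log axis) of a motif match in cluster peaks against other shared distal peaks, for the 17 motifs with enough matches, with a circle for the replicate 1 list and a diamond for the replicate 2 list; dashed lines mark 1.5 in either direction. CTCF stands at 0.217 and 0.254, and the SP and KLF string at 2.62 and 2.83.

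Genes with a cluster had accessible promoters more often than the rest. Of the 104 coding genes that a cluster overlapped or lay nearest to, a promoter peak was called at 93 (89.4%) in replicate 1 and at 92 (88.5%) in replicate 2, against 64.8% and 63.6% of the 21747 other coding genes. Where there was a peak, its median height was 3.86 in replicate 1 and 2.84 in replicate 2 for genes with a cluster, against 3.44 and 2.83 for the others, a gap smaller than the difference between the replicates. The tallest were at Bahcc1 (19.8 and 14.5) and at Osbp (16.4 and 11.5), the nearest gene to a tRNA array. Nfic (2.17 and 1.81), Rasgrf1 (2.07 and 1.71) and Mef2c (1.503 and 0.975) had promoter peaks below the median of the genes with a peak, and 11 of the 104 genes had none in replicate 1.

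In 24 clusters no coding gene was overlapped. The farthest from any coding gene lay 157800 bp from Gm11361 on chromosome 13 (8 peaks, sums of 8.72 in replicate 1 and 7.23 in replicate 2), 155359 bp from Tmem161b on the same chromosome (9 peaks, 5.83 and 5.67), at Mir124a-2, 109562 bp from Rps24 (10 peaks, 6.202 and 5.20) and 70458 bp from Zfp217 (8 peaks, 4.48 and 3.25). The first 4 held annotated long noncoding RNA genes, Gm40841, Gm17750, Mir124-2hg and 4930542C16Rik. Of higher rank, and also outside coding genes, were 15 peaks at 10393 bp from Calcoco1 with sums of 25.5 and 21.5, and 17 peaks around Mir3089 with 24.6 and 20.7.

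The replicates were compared cluster by cluster. After subtraction of the median ratio over all matched pairs, the log2 ratio of replicate 2 to replicate 1 lay between -0.31 and 0.48 in the 88 clusters (median -0.01). It was most positive at Sfi1 (0.48), at the tRNA array near Hist1h4h (0.48), at Rasgrf1 (0.41), Pcdh15 (0.39) and Sin3b (0.32), and most negative near Hivep2 (-0.31), at Irs1 (-0.30), Gria1 (-0.29) and Arntl (-0.29). It was above 0 in 40 of the 88 clusters, among them all 6 tRNA clusters (0.03 to 0.48). Chaining replicate 2 peaks in place of replicate 1 peaks gave 86 clusters, of which 80 overlapped one of the 88.

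A cluster on chromosome Y ranked 17 and needs its sequence stated beside it. It had 19 peaks with sums of 17.2 in replicate 1 and 18.3 in replicate 2, which were 55.9% of the 34 shared distal peaks of that chromosome, and 57.2% of the 20-base words in its span occurred more than once in it. Of its peaks, 15 had a near copy elsewhere in the genome (90% identity over 80% of the length). Reads from copied sequence cannot be placed with certainty, and the part of this in its height was not tested. Over all clusters 24 peaks (2.39%) in 4 clusters had such a copy, against 1.38% of every 80th other shared distal peak. The cluster near Ezh2 had 1 copied peak. Another was the cluster near Gm21119 on chromosome 8, with 7 of 8 peaks copied, named after its values were seen. Sfi1, with 9 peaks over 23582 bp and sums of 8.38 and 10.5, had 1. Depdc5, a subunit of a brake on mTORC1, had the other of the 5 longest spans, 26126 bp with 10 peaks and sums of 15.2 and 12.01. By chromosome, 11 held 11 clusters, 14 held 9 and 2 held 8, while X held 1 (Tenm1, named after its values were seen, 8 peaks in 3640 bp with sums of 4.39 and 3.44).

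Chain length was cut at 8 peaks, and the summed heights on both sides of that limit overlapped. There were 30 chains of 8 peaks and 66 of 7, with median summed heights of 11.2 and 8.95 in replicate 1. The 3 tallest chains of 8 were the tRNA arrays near Hfe2, Hist1h4h and Dhx37. The 3 tallest of 7 peaks overlapped Ctc1 (sums of 29.9 and 32.7, with 6 of 7 peaks on tRNA genes), lay near Msl1 (27.7 and 20.8) and overlapped Sfi1 (24.6 and 22.7), and by mean sum would have stood among the first 8 had they entered. Of the 25 clusters of highest rank, 18 were still clusters with close peaks merged and 9 with the shorter of the authors' 2 peak lists. The 7 clusters that passed all of 7 stricter settings were those at Mir9-2, Mir124a-3, Gria1, B4galt5, Apba2, Llgl1 and Rasgrf1. All but those at Mir9-2 and Mir124a-3 belong to the low class, with a mean peak height under 0.5. The settings on gap and peak number take no account of height.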

How the data were processed

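DNase-seq libraries from 2 hippocampus samples of 1 group were analysed, so no test between conditions was made. The deposited peak lists give a height per peak (signal, on a scale not stated), called per sample from a filtered mm10 alignment, per the notes the authors deposited with them; the longer of 2 lists a sample was used. A further deposited list gives, per interval, the false discovery rate of the cut rate (a q-value) up to 0.05, and the footprint list holds the authors' footprints with a constant p-value of 0.01 in a column without a name. Aligner, peak caller and versions: not given in the sources used here. The read depth is unknown. Both replicates may share animals, and placement of reads from the 2 parental alleles was not analysed here.

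From these, replicate 1 peaks shared with replicate 2 and more than 1000 bp from a GENCODE M21 basic coding start were chained with gaps up to 5000 bp, and chains of at least 8 peaks were kept, with bedtools 2.31.1, samtools 1.23.1, pysam 0.24.0, pandas 2.3.3 and numpy 2.4.6. Motifs were exact strings in 200 bp windows on GRCm38, and copies were found with blastn 2.17.0. The members and gene lists were chosen with earlier results of these data known. Named clusters were the 25 of highest summed height, the 5 with the most peaks, the longest spans, the most positive and most negative replicate ratios and the greatest distance from a coding gene, the 3 tallest chains of 8 and of 7 peaks, and up to 4 genes a list. The scripts were tested on simulated data. One of the clusters so named is not reported here in full.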

Additional observations from a re-analysis of the deposited data

How the results depend on the processing

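The number of clusters rested on the rule. It was 47 with gaps of 2500 bp, 269 with 10000 bp, 282 with at least 6 peaks, 42 with at least 10, 19 with the shorter of the authors' 2 peak lists, 52 with at least 50% overlap between replicates and 37 with peaks at most 200 bp apart merged. Their share of the shared distal peaks, 1.23%, was in that order 0.680%, 3.37%, 2.73%, 0.758%, 0.484%, 0.772% and 0.672%. It was 1.53% with a distance of 500 bp from a coding start, 0.907% with 2500 bp and 1.03% with the starts of all transcripts. The coding genes with a cluster, 104, numbered 55, 328, 304, 51, 19, 60 and 46 in the same order, and 66 with 2500 bp.

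The median promoter height of all genes with a cluster, those without a promoter peak counting as 0, exceeded that of other genes by 1.59. Where there was a peak, the medians were 3.86 in replicate 1 and 2.84 in replicate 2, against 3.44 and 2.83. The difference over all genes was 1.07 with gaps of 2500 bp, 1.26 with 10000 bp and 1.32 with at least 6 peaks. It was 1.22 with 2500 bp from a start, 1.04 with the shorter list and 1.32 with merged peaks. Footprints per 1000 bp were lower by a difference of -2.51 in clusters, which became -4.24 with gaps of 2500 bp, -0.30 with 10000 bp, -1.28 with at least 6 peaks, -3.20 with at least 10, -3.07 with all starts, -4.97 with the shorter list, -2.15 with 50% overlap and -0.59 among peaks of at least median height. Of 6 motifs lower in clusters, 2 were called with gaps of 10000 bp and 3 among the taller peaks, and of 3 higher, 1 with the shorter list. The CTCF odds ratio stayed between 0.161 and 0.670. Without scaling the median replicate ratio was -0.17.

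With 1 replicate alone, clusters numbered 272 to 423, their share was 3.52% to 4.38%, their genes 318 to 488, the promoter difference 1.20 to 1.496 and the footprint difference -3.47 to -2.46, because peaks then need not be shared. Alternatives chosen after seeing the data gave shares of 1.16% without the tRNA clusters, 0.918% without those of low mean height, 1.19% without copied peaks, 1.19% with replicate 2 peaks chained and 1.03% with overlapping peaks counted as 1 site. The footprint difference was -0.97 without the low clusters and -2.89 with replicate 2 chained, where the promoter difference was 1.84. No summary value changed its sign; the MEF2 odds ratio turned above 1 with gaps of 10000 bp. The causes were not tested beyond what each setting's construction shows. No paired analysis was possible because both samples belong to 1 group.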
